A study of Mus musculus with 4 samples.

Results

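The 9 let-7 genes of the mouse that lie outside the loci shared with miR-99, miR-100 and miR-125 were followed in small RNA libraries from embryonic stroma around the wolffian duct. They are Mirlet7a-1, Mirlet7f-1, Mirlet7d, Mirlet7c-2, Mirlet7b, Mirlet7g, Mirlet7i, Mirlet7f-2 and Mir98. They were chosen by name and locus, not by their values, though earlier results of these data were known. All 9 were found by gene ID among the 643 miRNA genes in a table of 2976 rows. The series holds 4 libraries and 1 group: CD1 embryos at stage E10.5, described as wildtype, that carried Tbx18-Cre and CAG-tdTomato. Cells that had used the Tbx18 promoter, and their descendants, were marked by the red fluorescent protein and collected by flow sorting. The labels name no embryo or pool for any library, so the spread given here is that between these libraries and may be technical. No comparison between conditions exists in this design.

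The let-7 family is known for its role in developmental timing: its mature miRNAs are scarce in early embryos and build up as cells differentiate. The RNA-binding proteins Lin28a and Lin28b hold let-7 back by binding the terminal loop of its precursors, and let-7 in turn represses Lin28, Hmga2 and other growth genes. In the developing kidney the balance of Lin28 and let-7 is known to influence how long nephron progenitors persist.

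The mature 5p sequences are shown first, since they set which target sites the 9 genes share and how well their reads can be told apart. RefSeq (GRCm38.p6) gave a 5p sequence for 9 of 9 genes. They run 5′ to 3′, and capitals mark the seed, bases 2 to 8 from the 5′ end, which pairs with the target.
let-7a (Mirlet7a-1): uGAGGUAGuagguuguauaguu
let-7f (Mirlet7f-1 and Mirlet7f-2): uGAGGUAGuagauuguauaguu
let-7d (Mirlet7d): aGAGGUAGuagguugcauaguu
let-7c (Mirlet7c-2): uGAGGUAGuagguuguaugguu
let-7b (Mirlet7b): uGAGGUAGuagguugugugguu
let-7g (Mirlet7g): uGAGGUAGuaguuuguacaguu
let-7i (Mirlet7i): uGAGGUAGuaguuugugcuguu
miR-98 (Mir98): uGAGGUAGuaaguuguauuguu
All 9 genes carry the same seed, and together they encode 8 distinct mature sequences of 22 nt. Relative to let-7a, with positions counted from 1 at the 5′ end, let-7f differs by G12A and let-7c by A19G. The sequence of let-7d differs from it by U1A and U16C, that of let-7b by A17G and A19G, and that of let-7g by G12U and U18C. For miR-98 the differences are G11A and A19U, and for let-7i they are G12U, A17G, U18C and A19U. Of the 28 pairs of distinct sequences, 3 differ at 1 base and 8 at 2 bases. The rows of the table are hairpin genes, so reads of both arms of a hairpin are in 1 value. A read of let-7f fits Mirlet7f-1 and Mirlet7f-2 equally, and how such reads were assigned is not stated in the labels.

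The genes lie at 5 places. On chromosome 13, Mirlet7a-1 (gene ID 387244, chr13:48538179-48538272), Mirlet7f-1 (387252, chr13:48537829-48537917) and Mirlet7d (387247, chr13:48536012-48536114) lie on the minus strand within 2261 nt, inside an exon of the long non-coding RNA 6720427I07Rik. Mirlet7f-1 also lies opposite Gm24111, an annotated miRNA on the plus strand, and whether the counting used strand is not stated. On chromosome 15, Mirlet7c-2 (723966, chr15:85706603-85706697) and Mirlet7b (387245, chr15:85707319-85707403) lie on the plus strand within 801 nt and overlap an exon of Lncppara, a non-coding host transcript. On chromosome X, Mirlet7f-2 (387253, chrX:151912346-151912428) and Mir98 (723947, chrX:151913214-151913321) lie on the plus strand within 976 nt, in an intron of the ubiquitin ligase gene Huwe1. Mirlet7g (387249, chr9:106178840-106178927, plus strand) lies in an intron of Wdr82. Mirlet7i (387251, chr10:122985640-122985724, minus strand) overlaps an exon of D630033A02Rik, a transcribed pseudogene. Coordinates are those of GRCm38. The host transcripts were not analysed here.

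Reads over miRNA genes, recovered from the deposited values, numbered from 146255 in library 4 to 1087240 in library 2. Levels are in TPM, a length-corrected share of all reads of a library. Rows of this table made up only 2.33% to 7.22% of that total, so a TPM level also moves with genes not used here, and a share of the miRNA sum is given beside it. Of the lists of cell markers, the mesenchymal stroma list summed to 1894, 2373, 1444 and 331 TPM in libraries 1 to 4, with 4 of its 6 rows above 0 in all libraries and Mir199a-2 and Mir214 listed at 0. Neural markers summed to between 37.6 and 3082 TPM, with the highest sum in library 3. Of that list, 6 of 9 rows were above 0 in all libraries, and Mir124a-1 was listed at 0. Mir9-3 alone gave 2860.5 TPM of the sum in library 3, and the other rows above 0 were also highest there. In such bulk samples, fewer cells of a type and less RNA per cell cannot be told apart.

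All 9 let-7 genes were present at 1 TPM or more in all 4 libraries. Of all 643 miRNA genes, these 9 included, 213 reached that level in all 4 libraries. The summed level of the 9 genes was 1669, 324, 197 and 160 TPM in libraries 1 to 4. The mean was 588 ± 724 TPM (SD, n = 4). Library 1 held more of this let-7 than the other libraries did together, and without it the mean was 227 TPM. As a share of the miRNA sum, the 9 genes took 3.93%, 0.495%, 0.319% and 0.977% of TPM, or 1.43% ± 1.69 (SD, n = 4) and 0.597% without library 1. By share library 4 was therefore second, where by TPM it was lowest. In recovered reads the share was 4.28% in library 1 (95% Wilson interval 4.24% to 4.32%), 0.541% in library 2 (0.527% to 0.555%), 0.339% in library 3 (0.328% to 0.351%) and 1.09% in library 4 (1.04% to 1.15%). These intervals cover counting error only and say nothing of the spread between libraries.

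Ordered by mean TPM, Mirlet7f-2 and Mirlet7g led, Mirlet7i, Mirlet7d, Mirlet7a-1 and Mirlet7b followed, and Mirlet7f-1, Mir98 and Mirlet7c-2 were lowest. The means ran from 178 to 11.6 TPM, which placed the genes between rank 53 and rank 165 of the 643 miRNA genes. This order leans on library 1. Without it the mean of Mirlet7a-1, 37.5 TPM, was above those of Mirlet7d, 21.9 TPM, and Mirlet7i, 19.2 TPM. Mirlet7b, at 4.62 TPM, was then below Mirlet7f-1, at 8.25 TPM.

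**Figure D1:**
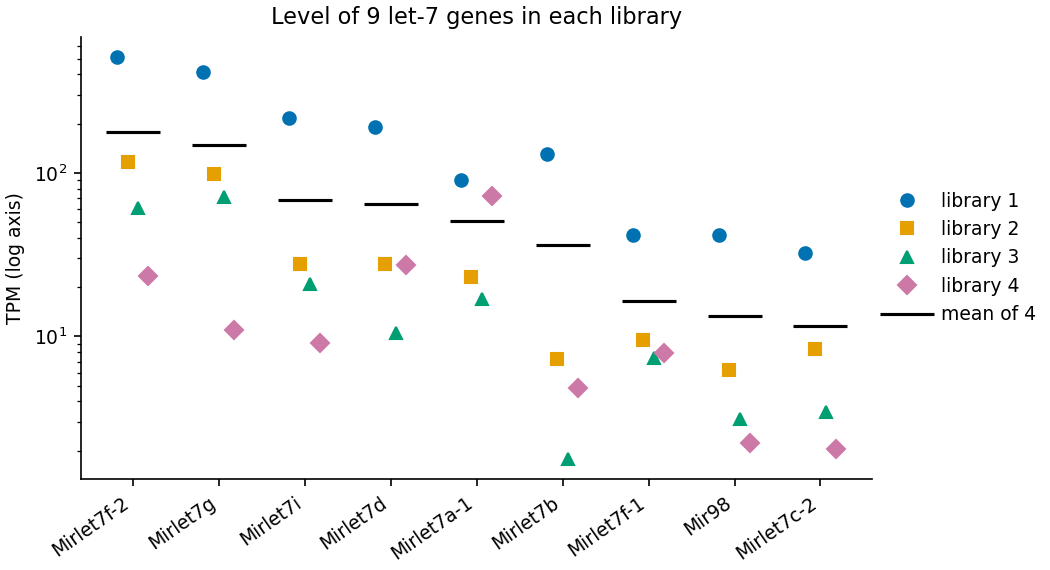
TPM on a log axis for each of the 9 let-7 genes, ordered by mean, with 1 point per library and a bar at the mean of 4. For all 9 genes the highest point is library 1, and for Mirlet7a-1 the point of library 4 at 72.4 TPM is close to it at 89.9 TPM.

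The X-linked pair was unequal. Mirlet7f-2 stood at 513, 117, 61.4 and 23.4 TPM in libraries 1 to 4, a mean of 178 ± 226 TPM (SD, n = 4) and 67.1 TPM without library 1. Mir98, in the same intron of Huwe1, stood at 41.9, 6.26, 3.14 and 2.23 TPM, a mean of 13.4 ± 19.1 TPM (SD, n = 4) and 3.88 TPM without library 1. By TPM both genes had the same order of libraries, highest in library 1 and lowest in library 4. Mirlet7f-2 was above Mir98 in 4 of 4 by 3.61 ± 0.50 log2 units (SD, n = 4; log2 of TPM + 1).

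Mirlet7g, the intronic gene of Wdr82, stood at 412, 98.0, 71.1 and 11.0 TPM, a mean of 148 ± 180 TPM (SD, n = 4) and 60.0 TPM without library 1. It was 37.6 times higher in its highest library than in its lowest. Mirlet7i stood at 216, 27.6, 21.0 and 9.06 TPM, a mean of 68.4 ± 98.7 TPM (SD, n = 4) and 19.2 TPM without library 1. These genes have no let-7 neighbour at their loci, and like the X-linked pair they were lowest in library 4 by TPM. Most miRNA genes were low there: of 170 with a mean of at least 10 TPM, these 9 included, 6.47% lay above their own log2 mean. By share of the miRNA sum only Mirlet7g of the 9 was lowest in library 4, at 0.067%. The other 8 of the 9 genes were then lowest in library 3. How many of all miRNA genes were lowest there by share was not counted. With libraries rescaled to equal miRNA sums, 42.4% of the 170 lay above their own log2 mean in library 3, and 0 of the 9 did.

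On chromosome 13 the members did not share 1 order of libraries. Mirlet7a-1 stood at 89.9, 23.0, 17.0 and 72.4 TPM, a mean of 50.6 ± 36.1 TPM (SD, n = 4) and 37.5 TPM without library 1. It was high in libraries 1 and 4 and low in libraries 2 and 3, and its coefficient of variation of 71.3% was the smallest of the 9. Mirlet7d stood at 191, 27.8, 10.4 and 27.4 TPM, a mean of 64.2 ± 85.1 TPM (SD, n = 4) and 21.9 TPM without library 1. Mirlet7f-1, which lies between them, stood at 41.5, 9.46, 7.38 and 7.92 TPM, a mean of 16.6 ± 16.6 TPM (SD, n = 4) and 8.25 TPM without library 1. Mirlet7f-1 was below Mirlet7a-1 by 1.61 ± 0.95 log2 units and below Mirlet7d by 1.44 ± 0.73 (SD, n = 4), each in 4 of 4 libraries. The ratio of Mirlet7a-1 to Mirlet7f-1 was 1.10, 1.20 and 1.11 log2 units in libraries 1 to 3 and 3.04 in library 4. Mirlet7d was above Mirlet7a-1 in libraries 1 and 2 and below it in libraries 3 and 4.

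The chromosome 15 pair was low outside library 1. Mirlet7b stood at 131, 7.27, 1.78 and 4.80 TPM, a mean of 36.1 ± 63.1 TPM (SD, n = 4) and 4.62 TPM without library 1. Its level in library 1 was 28.3 times the mean of the other libraries, and its coefficient of variation of 175% was the largest of the 9. Mirlet7c-2 stood at 32.5, 8.40, 3.46 and 2.05 TPM, a mean of 11.6 ± 14.2 TPM (SD, n = 4) and 4.64 TPM without library 1. Mirlet7b was above Mirlet7c-2 in libraries 1 and 4 and below it in libraries 2 and 3, so this pair had no fixed order. The lowest counts behind any of the 9 levels were 21 reads for Mirlet7c-2 (95% exact Poisson interval 12.999 to 32.1) and 26 for Mir98 (17.0 to 38.1), both in library 4, and 29 for Mirlet7b in library 3 (19.4 to 41.6).

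The order of the genes was partly stable. Over the 36 pairs of the 9 genes, 22 had the same sign of log2 ratio in all 4 libraries. Leaving out library 1, 2, 3 or 4 gave 25, 22, 24 and 27 pairs, a count that cannot fall when a library is dropped. Of the 8 pairs of neighbours in the order of means, only Mirlet7g above Mirlet7i held in 4 of 4 libraries, at 1.17 ± 0.73 log2 units (SD, n = 4). The other 7 neighbour pairs changed sign between libraries, so their order was not set apart from the spread: Mirlet7f-2 was above Mirlet7g by 0.34 ± 0.51 log2 units (SD, n = 4), in 3 of 4 libraries, and by 0.12 without library 4. Of the 14 pairs without 1 sign, 5 held Mirlet7a-1. In a two-sided exact permutation test that flips signs, the pairs with 1 sign gave p = 0.13, the least that 4 libraries can give, and 0.203 after Benjamini-Hochberg adjustment over 39 ratios. This design could therefore not reach 0.05 for any pair.

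**Figure D2:**
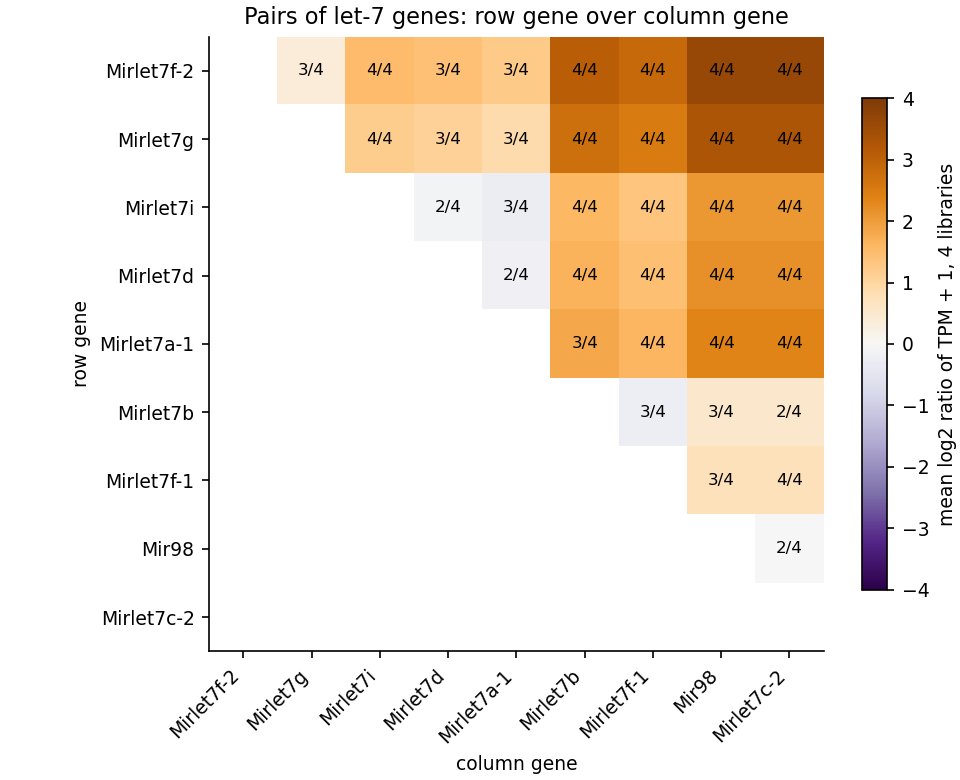
Mean log2 ratio of TPM + 1 over 4 libraries for each of the 36 pairs, row gene over column gene, with the number of libraries of 4 that share the more frequent sign. The upper right corner, where Mirlet7f-2 and Mirlet7g meet the lowest genes, is dark with 4 of 4, and the cells next to the diagonal are pale except Mirlet7g over Mirlet7i (4 of 4) and Mirlet7a-1 over Mirlet7b (3 of 4).

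The make-up of the let-7 sum differed in library 4. Mirlet7a-1 made up 5.39%, 7.10% and 8.66% of the summed TPM of the 9 genes in libraries 1 to 3 and 45.2% in library 4, where it ranked first of the 9 on 734 recovered reads. Mirlet7g made up 24.7%, 30.2% and 36.2% in libraries 1 to 3 and 6.84% in library 4. Mirlet7f-2 likewise took 30.7%, 35.9% and 31.2% in libraries 1 to 3 and 14.6% in library 4. Mirlet7f-2 ranked first in libraries 1 and 2, and Mirlet7g in library 3. Recovered reads of Mirlet7a-1 numbered 2161, 445 and 307 in libraries 1 to 3. Library 4 was also the shallowest library, and the part of depth in this difference was not tested.

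**Figure D3:**
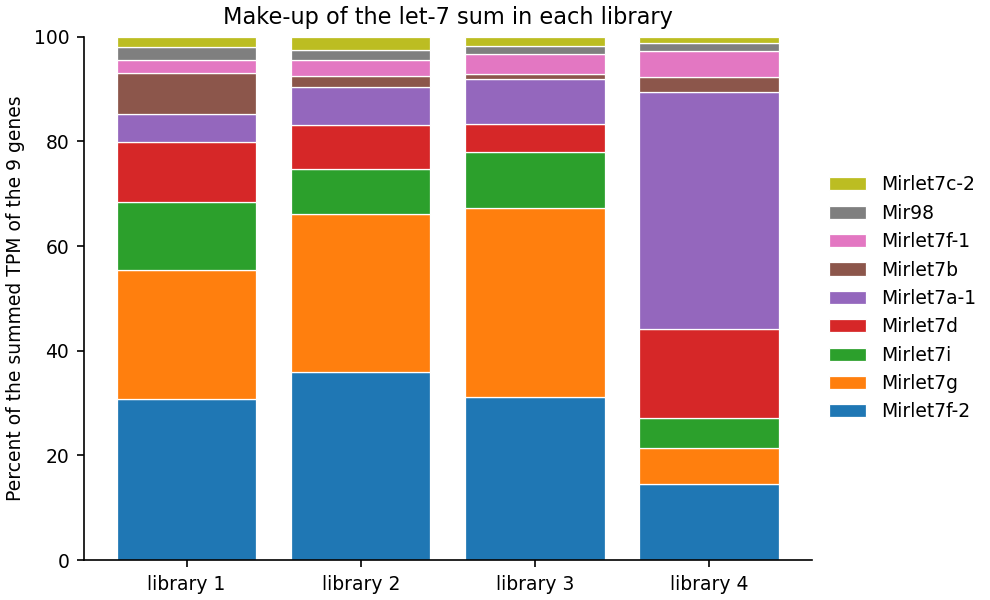
Percent of the summed TPM of the 9 let-7 genes taken by each gene, 1 stacked bar per library. Mirlet7f-2 and Mirlet7g are the largest parts of the bars of libraries 1 to 3, while Mirlet7a-1 takes 45.2% of the bar of library 4.

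The let-7 levels of library 1 were set against those of all miRNA genes with a mean of at least 1 TPM over libraries 2 to 4, a filter that does not use library 1 and was chosen after the data were seen. All 9 genes passed it, with the 3 let-7 genes at the miR-99/miR-125 loci and 261 other genes. Each gene's log2(TPM + 1) was taken relative to its own mean over the 4 libraries. In library 1 the 9 genes lay between 1.14 and 3.52 log2 units above their means, with a median of 2.39, while the median of the 261 others was -0.02. The highest of the 261 reached 1.74, and 7 of the 9 lay above it. The 3 let-7 genes at the miR-99/miR-125 loci were also raised, between 1.21 and 2.24, with Mirlet7a-2 the highest of them. With the filter at 10 TPM, Mirlet7a-1, Mirlet7d, Mirlet7g, Mirlet7i and Mirlet7f-2 passed, and 4 of these 5 lay above the highest of 157 others. In libraries 2, 3 and 4 the medians of the 9 were -0.26, -0.86 and -1.31, against 0.56, 0.47 and -0.99 for the 261, genes that the filter kept for their levels in these libraries. By TPM, 9 of 9 let-7 genes had their highest level in library 1, as did the 3 let-7 genes at the miR-99/miR-125 loci. Of the 261 others, 28 did (10.7%). By share of the miRNA sum, 8 of 9 did, along with 66 of the 261 (25.3%), and Mirlet7a-1 was highest in library 4, at 0.442% against 0.212% in library 1. These are descriptions of 4 libraries and no test. With libraries rescaled to equal miRNA sums, the medians of the 9 were 2.35, -0.90, -1.30 and -0.28 in libraries 1 to 4, so library 4 moved toward the mean and library 1 stayed apart.

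**Figure D4:**
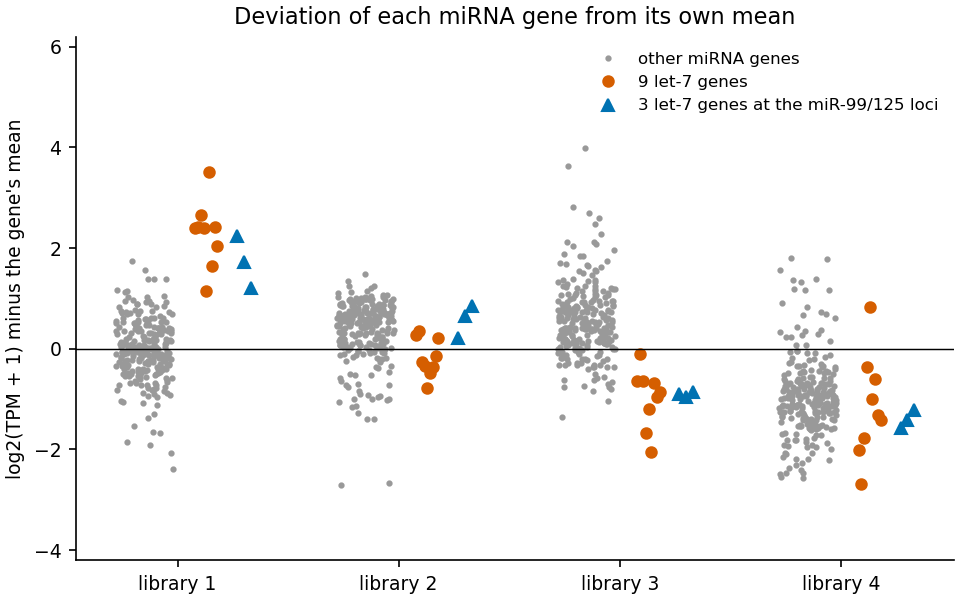
Each point is a miRNA gene with a mean of at least 1 TPM over libraries 2 to 4, placed at log2(TPM + 1) minus its mean over the 4 libraries, by library. The 9 let-7 genes lie between 1.14 and 3.52 in library 1, above most of the 261 other genes, and between -2.05 and -0.10 in library 3.

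Some marker lists were also highest or lowest in library 1. Striated muscle markers summed to 341 TPM there against 119 to 224 TPM in the others, with 3 of 5 rows above 0 in all libraries and Mir1a-2 listed at 0. Mir206 alone gave 327 TPM of that sum, and the other 3 rows above 0 were highest in library 3. By share of the miRNA sum the striated muscle list was highest in library 4, at 1.36% against 0.803% in library 1. Early embryo markers of the miR-302/miR-367 cluster were lowest there, at 1.04 TPM against 16.1, 33.7 and 20.6 TPM in libraries 2 to 4, with 3 of 5 rows above 0 in all libraries. The endothelial, erythroid, white blood cell, neural, epithelial, liver and mesenchymal stroma lists had their highest TPM sum in another library. By share, however, the mesenchymal stroma list was highest in library 1, at 4.46% against 3.62%, 2.34% and 2.02% in libraries 2 to 4. The part of other cell types in the let-7 levels was not tested.

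The nearest relatives of these genes are Mirlet7a-2, Mirlet7c-1 and Mirlet7e, which lie at the miR-99/miR-125 loci. The 9 genes gave 42.4%, 24.5%, 36.2% and 39.3% of the let-7 TPM of all 12 genes in libraries 1 to 4, a mean of 35.6% ± 7.80 (SD, n = 4). The 3 genes thus gave more than the 9 in every library, with a log2 ratio of the 9 to the 3 of -0.87 ± 0.52 (SD, n = 4; lower in 4 of 4 libraries; exact two-sided permutation p = 0.13, adjusted 0.203). The ratio of the median over genes was lower still, at -2.95 ± 0.40 (SD, n = 4). Library 2, at -1.62, gave the most extreme ratio of sums, and library 1, at -0.44, the least. The profile of the summed 9 genes over the 4 libraries was compared with 161 other miRNA genes by the root mean square difference of centred log2(TPM + 1). The 5 nearest were Mirlet7a-2 at 0.27, Mirlet7c-1 at 0.49, Mirlet7e at 0.71, Mir485 at 0.76 and Mir146 at 0.78 log2 units, and the median of the 161 was 1.39. Candidates had a mean of at least 10 TPM, and Mir146 reached that only through library 1, with a mean of 6.63 TPM without it. With the filter on libraries 2 to 4 instead, the first 4 stayed and Mir483 at 0.79 took its place, and at 1 TPM Mir184 at 0.63 came before Mirlet7e. The likeness rests on 4 libraries that differ in depth, and let-7 copies may share reads. Mir485, a gene of the imprinted Dlk1-Dio3 locus, stood at 326, 195, 75.8 and 127 TPM in libraries 1 to 4, so it too was highest in library 1. Mir146, of a family known from inflammation, was low, at 22.1, 8.68, 9.63 and 1.57 TPM.

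Copies that share a mature sequence were unequal, and the split of their reads is uncertain because the counting may have divided them. For let-7c, the log2 ratio of Mirlet7c-2 to Mirlet7c-1 was -5.06, -5.82, -5.29 and -5.39 in libraries 1 to 4, a mean of -5.39 ± 0.32 (SD, n = 4). Mirlet7c-2 gave 1.99% ± 0.595 of the pair's TPM (SD, n = 4). For let-7f, where both copies are among the 9, Mirlet7f-1 gave 7.49%, 7.50%, 10.7% and 25.3% of the pair's TPM in libraries 1 to 4. For let-7a, Mirlet7a-1 gave 9.96%, 10.3% and 15.7% of the pair in libraries 1 to 3 and 55.9% in library 4, so it was below Mirlet7a-2 in 3 of 4 libraries. The RefSeq hairpin of Mirlet7a-2 holds the let-7a sequence printed above. Library 4 was thus the library in which both chromosome 13 copies took their largest share.

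Of the genes fixed as a let-7 pathway list, 1 had a row: H19, an imprinted non-coding RNA reported to bind let-7. It stood at 0.637, 0.113, 0.172 and 0.848 TPM in libraries 1 to 4, each under the level of 1 TPM taken here as present. These are small RNA libraries, and whether the reads reflect the level of the full-length H19 RNA was not tested. Lin28a, Lin28b, Dicer1 and the other protein-coding genes of that list were not analysed here.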

How the data were processed

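Per the labels' protocols, Tbx18-lineage cells were flow-sorted into a lysis reagent, total RNA that keeps small RNA was extracted, and small RNA libraries were sequenced as single reads of 75 bp. The authors deposited TPM values for each library, with genes given by Entrez ID. The submitters' processing notes name mm10 (GRCm38) as the build and limma as a tool. The aligner, the counter and the annotation are not stated there. Rows were joined by gene ID to RefSeq genes of GRCm38.p6, and 2541 of 2976 matched. Host genes came from GENCODE vM21.

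Reads were recovered by multiplying TPM by gene length and dividing by the smallest nonzero product of each library, which gave whole numbers for 100% of nonzero miRNA values (tolerance 0.01). The 4 libraries form 1 group. Levels are means with SD. Ratios used a pseudocount of 1 TPM and a two-sided exact permutation test that flips signs, with Benjamini-Hochberg adjustment over 39 ratios. Log2 ratios with a pseudocount understate differences of low genes. Recovery and test were checked on simulated data. Named genes were all 9 members, the 3 let-7 genes at the miR-99/miR-125 loci, a pathway list and the 5 nearest profiles; the members and lists were chosen with earlier results of these data known. Alternatives covered the pseudocount, low values, rescaling, hairpin length, the median over genes and leaving out each library, and a filter without library 1 was added after the data were seen. Tools were Python 3.11.15 with scipy 1.17.1, numpy 2.4.6, pandas 2.3.3 and matplotlib 3.10.9.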

Additional observations from a re-analysis of the deposited data

Results flagged for a closer look

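By Dixon's gap test at the 95% level, library 1 stood apart for the TPM of 5 of the 9 let-7 genes and for their sum. Library 1 held 41.5 TPM of Mirlet7f-1, 191 TPM of Mirlet7d, 131 TPM of Mirlet7b, 216 TPM of Mirlet7i, 41.9 TPM of Mir98 and 1669 TPM of the sum of the 9. As a share of the miRNA sum, the sum of the 9, at 3.93% in library 1, did not pass this test, and Mirlet7f-1 and Mirlet7d did not either, while 6 of the 9 genes did. Of the 39 ratios, library 4 stood apart in 3, all log2 ratios among the 9: Mirlet7g to Mirlet7a-1 at -2.62, Mirlet7g to Mirlet7f-1 at 0.42 and Mirlet7a-1 to Mirlet7f-1 at 3.04. Chance flags about 1 in 20 such groups where values follow a normal distribution. Levels and shares were tested without a log, a scale on which a high value stands further apart, and only the ratios were in log2. How many levels would be flagged in log2 was not counted. The genes also share the same 4 libraries, so these values are not independent of each other. How often this rule flags miRNA genes as a whole was not computed, so the counts show nothing particular to let-7.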

How the results depend on the processing

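Of 177 values recomputed for 28 results, 169 kept their direction, or stayed within 1 SD or 1.5 times where no direction was tested, and 8 reversed. Leaving out 1 library cannot move a mean over these libraries by as much as 1 SD. Levels and shares were therefore counted as kept in that check whatever the data, and the count of pairs with 1 sign can only rise. The 169 thus do not show that levels hold without library 1. All 8 reversed values were in 4 pairs of neighbours whose order had not held in all libraries, and their cause was not tested. The log2 ratio of Mirlet7i to Mirlet7d was -0.10 and turned to 0.37 without library 4 (-0.44 to 0.37 over the libraries left out), and that of Mirlet7d to Mirlet7a-1 was -0.17 and turned to 0.23 without library 4 (-0.59 to 0.23). Mirlet7b to Mirlet7f-1, at -0.23, turned to 0.22 without library 3 (-0.85 to 0.22) and to 0.11 with a pseudocount of 10 TPM. Mir98 to Mirlet7c-2, at -0.01, turned to 0.11 without library 2, 0.023 without library 3 (-0.13 to 0.11), 0.024 with a pseudocount of 10 TPM and 0.16 from recovered reads. Leaving out each library moved the mean sum of the 9 genes from 227 to 730.0 TPM. No paired comparison of conditions was possible because the series has 1 group, and the ratios of genes were paired within libraries.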
